A study of Mus musculus with 23 samples.

Results

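Loss of pannexin 1 was examined in cardiomyocytes from mice given saline, as 3 knockout libraries set against 3 wild-type libraries. These 6 libraries, chosen by their labels alone, are 6 of the 23 in the series, of which 14 come from isolated cardiomyocytes and 9 from whole hearts. The knockout mice are labelled Panx1myhc6 and the wild-type mice Panx1fl/fl, so that both groups carry the floxed Panx1 allele. The knockout label names myosin heavy chain 6 (Myh6), whose promoter is active in cardiomyocytes and is widely used to drive a recombinase there. Other cell types of the heart are not targeted by such a driver. The wild-type label names no driver, so effects of carrying a driver and of Panx1 loss cannot be told apart. P-values are computed over libraries. Those from limma rest on a spread estimated over all 14 cardiomyocyte libraries, and the saline permutation tests on the 6 saline libraries. All mice were male, and the labels state neither age nor strain background nor whether animals were pooled. The sample labels give the treatment as saline, whereas the series description calls the same mice untreated. A second pair of cardiomyocyte groups, 4 knockout and 4 wild-type libraries, came from mice given isoproterenol at 15 mg/kg per day for 14 days. They serve below to test whether the saline effect differs from the effect under that drug. They were also fitted together with the saline libraries, and so enter the gene filter and the spread behind each saline SE and limma p. Expression is given as FPKM, fragment counts scaled to transcript length and library size, as the authors deposited them. Wherever values of single libraries follow each other, the knockout order is PNXM658, PNXM664 and PNXM663 and the wild-type order is PNXM657, PNXM661 and PNXM649.

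Pannexin 1 forms large-pore channels in the plasma membrane that let ATP and other small metabolites leave the cell, and caspase cleavage opens them in dying cells. Released ATP acts on purinergic P2X and P2Y receptors and is broken down by ectonucleotidases to adenosine. An adult cardiomyocyte makes most of its ATP by oxidative phosphorylation, largely from fatty acids, and the respiratory complexes that do this combine subunits encoded on the mitochondrial chromosome with subunits encoded in the nucleus.

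The knockout libraries held 24.1 M, 24.3 M and 24.1 M assigned reads (M stands for 1e6), against 30.1 M, 29.9 M and 25.7 M in the wild-type libraries. After removal of mitochondrial reads, 7.38 M, 4.85 M and 5.18 M were left in the knockout libraries, against 13.1 M, 13.4 M and 9.02 M in the wild-type libraries, so knockout levels of nuclear genes rest on fewer reads. Cardiomyocyte markers were abundant in all 6 libraries. Transcripts of other tissues were present as well, unevenly within each genotype. Rag1, the recombinase of developing lymphocytes, had 48.2, 0.907 and 0.182 FPKM in the knockout libraries, against 138, 4.26 and 0.929 FPKM in the wild-type libraries. Immature thymocyte transcripts were thus concentrated in knockout PNXM658 and wild-type PNXM657. Scgb1a1, the secretoglobin of airway club cells, had 118, 319 and 7.41 FPKM in the knockout libraries, against 107, 1569 and 2842 FPKM in the wild-type libraries. Airway transcripts were highest in wild-type PNXM661 and PNXM649. In both marker sets 6 of 6 tested genes had lower knockout means, with median log2 differences of -0.95 for thymocytes, which was 0.57 without PNXM657, and -2.36 for airway, which was -0.12 without PNXM661 and PNXM649. These sets were chosen after their values were seen, and their part in the results was not tested. In bulk RNA, fewer cells of a type and less RNA per cell cannot be told apart.

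**Figure D1:**
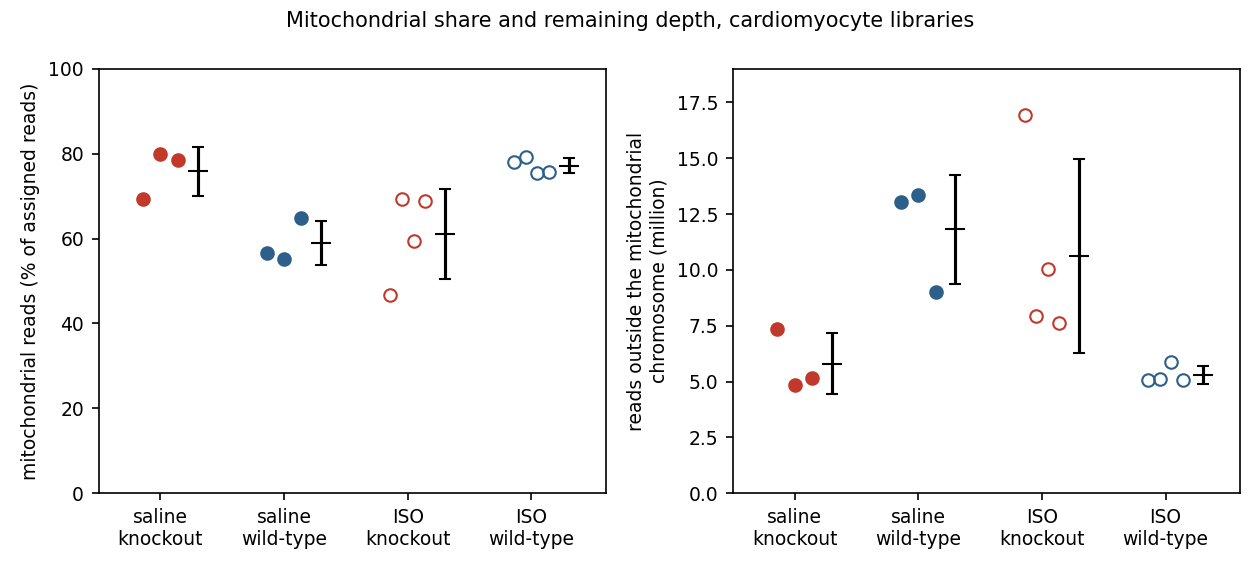
Percent of assigned reads from the mitochondrial chromosome (left) and reads from all other chromosomes (right) in each cardiomyocyte library, with knockout left of wild-type in saline (filled) and after isoproterenol, ISO (open). Crosses with bars are means ± SD; saline knockout libraries lie at 69.3 to 80.0% and saline wild-type libraries at 55.3 to 65.0%.

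Panx1 itself was low in both genotypes. It had 1.72, 2.0 and 1.28 FPKM in the knockout libraries, against 2.89, 1.57 and 2.17 FPKM in the wild-type libraries. The groups overlapped, since wild-type PNXM661 lay below knockout PNXM658 and PNXM664. The means were 1.67 ± 0.361 FPKM in knockout and 2.21 ± 0.663 FPKM in wild-type libraries (SD, n = 3 each; exact permutation test, two-sided, p = 0.3, adjusted p = 0.3 over 4 per-library measures, where 3 against 3 allow none below 0.1). On the log2(FPKM + 1) scale, which understates changes of low genes, the difference was -0.25 ± 0.17 (SE). With assigned reads as library size in place of the authors' scaling, the FPKM difference was -1.59 (exact permutation test, two-sided, p = 0.1). That scaling lowers most genes in the knockout, and relative to the median of all genes the log2 difference of Panx1 was then -0.15. With equal totals outside the mitochondrial chromosome, the Panx1 difference was -0.83 FPKM (exact permutation test, two-sided, p = 0.1, the smallest possible). Under that scaling the median log2 difference of all genes was -0.17. The gene spans positions 15005161 to 15045478 on the minus strand of chromosome 9 in the deposited table. The value covers the whole gene, and the sources do not say which exons the floxed allele removes, so this level does not check the deletion closely. Panx2 stayed between 0.0357 and 0.201 FPKM in the 6 libraries and was too low to test.

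No gene was called between saline knockout and wild-type cardiomyocytes. Of 11919 genes tested with limma, 0% had an adjusted p below 0.05, and the smallest adjusted p was 0.895. An unadjusted p below 0.05 was reached by 421 genes, or 3.53%, with 318 higher (2.67%) and 103 lower (0.864%) in the knockout. The voom fit of the recovered reads also called 0 genes, with 434 at an unadjusted p below 0.05. The unadjusted count depended on the libraries fitted. It was 1075 when limma was run on only the 6 saline libraries, 855 with array weights and 312 without PNXM663, each with 0 genes called. In 1414 genes (11.9%) the lowest knockout value exceeded the highest wild-type value, and in 344 genes (2.89%) the highest knockout value stayed under the lowest wild-type value. The median log2 difference over all genes tested was 0.01, and 51.6% of the differences were above 0. These shares are the background for the gene groups that follow, whose differences are all log2 differences of FPKM + 1, knockout minus wild-type, with SE. The FPKM carry a scaling between libraries that the authors applied: when assigned reads served as library size instead, the median difference of all genes moved to -0.68 and 6181 genes were called, 8 higher and 6173 lower. Relative to that median, the lists below kept their direction at 1.02 for mitochondrially encoded proteins, 0.47 for complex I and 0.59 for the sarcomere. Before that median was subtracted, the nuclear lists lay below 0. The mitochondrial list then lay above 0, but by less than with the authors' scaling.

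Transcripts of the mitochondrial chromosome took a larger share of the knockout libraries. Mitochondrial reads made up 69.3, 80.0 and 78.5% of assigned reads in the knockout libraries, against 56.7, 55.3 and 65.0% in the wild-type libraries. All 3 knockout libraries lay above all 3 wild-type libraries. The means were 75.9 ± 5.78% in knockout and 59.0 ± 5.23% in wild-type libraries, a difference of 17 percentage points (SD, n = 3 each; exact permutation test, two-sided, p = 0.1, the smallest possible, adjusted p = 0.133). Taken as a share of summed FPKM instead, the difference was 9.20 percentage points. Of the mitochondrially encoded protein genes, 13 of 13 had higher means in the knockout, 11 of them without overlap, against a background of 11.9%. Their median difference was 1.34, and it lay between 1.11 and 1.68 when each saline library was left out in turn. For 11 of the 13 the unadjusted limma p was below 0.05, against a background of 2.67%.

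mt-Atp6, the proton-channel subunit of ATP synthase, had the smallest p of all genes. It had 22154, 52273 and 35372 FPKM in the knockout libraries, against 9499, 7927 and 15861 FPKM in the wild-type libraries. Its difference was 1.70 ± 0.37, with an unadjusted limma p of 0.00047 and an adjusted p of 0.895. mt-Co3, a core subunit of cytochrome c oxidase, had 24919, 57901 and 34851 FPKM in knockout, against 12067, 7102 and 18226 FPKM in wild-type libraries. Its lowest knockout value was above the highest wild-type value, and the difference was 1.67 ± 0.39. mt-Nd1 of complex I differed by 1.37 ± 0.35, mt-Cytb of complex III by 1.34 ± 0.39 and mt-Co1, the catalytic subunit of cytochrome c oxidase, by 1.37 ± 0.37. In nearly all of these genes knockout PNXM658 was the lowest knockout library and wild-type PNXM649 the highest wild-type library. mt-Nd3 and mt-Nd4l were the exceptions to the separation: mt-Nd3 had 1247, 2196 and 3442 FPKM in knockout, against 1257, 1420 and 1091 FPKM in wild-type libraries, and PNXM658 lay within the wild-type range.

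**Figure D2:**
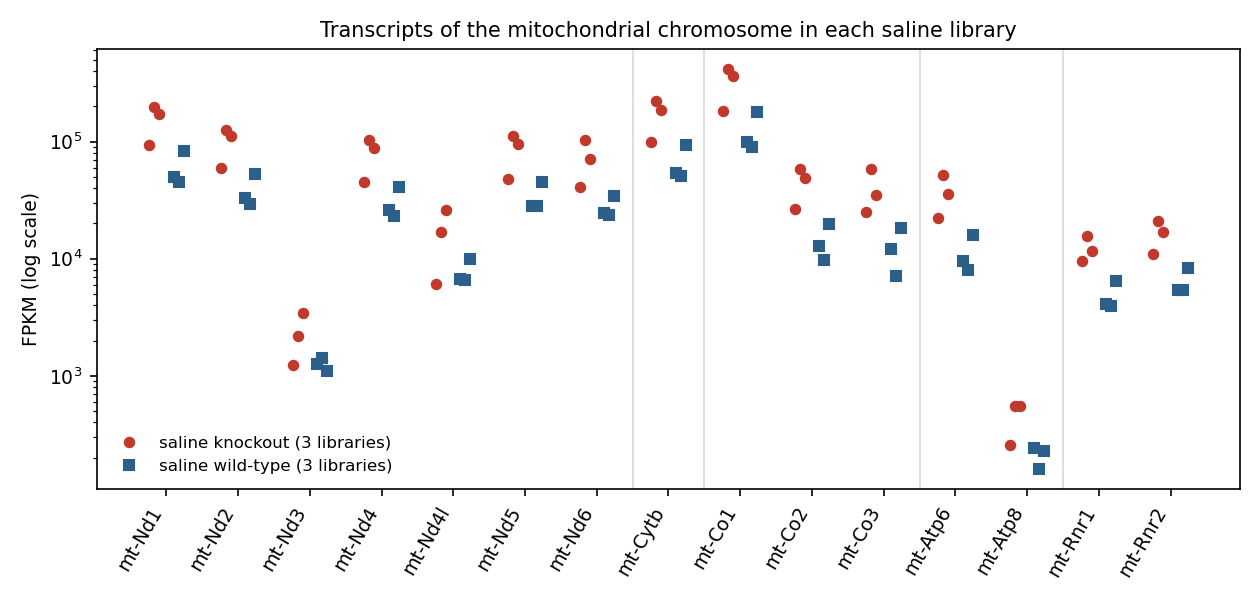
FPKM on a log scale of the 13 protein genes and 2 ribosomal RNAs of the mitochondrial chromosome, with the 3 saline knockout libraries (circles) left of the 3 saline wild-type libraries (squares) for each gene. In all but mt-Nd3 and mt-Nd4l the lowest knockout library lies above the highest wild-type library.

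The RNAs that translate these messages showed the same order. mt-Rnr1, the small ribosomal RNA, had 9469, 15743 and 11523 FPKM in the knockout libraries, against 4074, 3954 and 6433 FPKM in the wild-type libraries, a difference of 1.35 ± 0.32. mt-Rnr2, the large one, differed by 1.32 ± 0.35. All 21 mitochondrial transfer RNAs tested had higher means in the knockout, 13 without overlap (background 11.9%), with a median difference of 1.35. mt-Tf was listed at 0 in every saline library. Mitochondrial genes are transcribed as long precursors from both strands, overlap in places, and have near-identical copies in the nuclear genome, so reads of single mitochondrial genes are uncertain. mt-Atp8 and mt-Atp6 are the clearest case, since the last 43 bases of mt-Atp8 (21.1% of its length) are the first 43 bases of mt-Atp6. The stretch below is printed because the difference was 1.04 ± 0.33 for mt-Atp8 and 1.70 ± 0.37 for mt-Atp6 although both share it. The bases come from the GENCODE M21 transcripts, build GRCm38, plus strand, chrMT:7907-7989, and capitals mark those that both genes share.
mt-Atp8 and mt-Atp6: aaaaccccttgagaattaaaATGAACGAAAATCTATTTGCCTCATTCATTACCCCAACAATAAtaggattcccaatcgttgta

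The nuclear genes that copy and transcribe mitochondrial DNA did not move by a like amount. Of 27 tested, 21 were higher, 6 without overlap (background 11.9%), and their median difference was 0.14, or 0.09 without PNXM649. Tfam, which packages mitochondrial DNA and starts its transcription, had 3.81, 2.99 and 2.55 FPKM in the knockout libraries, against 3.93, 2.40 and 2.76 FPKM in the wild-type libraries. Polrmt, the mitochondrial RNA polymerase, differed by 0.02 ± 0.18 and Tfb2m, its partner in promoter opening, by 0.20 ± 0.20. Fastk, whose mitochondrial form is needed for mt-Nd6 messenger RNA, had 15.3, 14.6 and 16.5 FPKM in knockout, against 7.44, 8.63 and 10.45 FPKM in wild-type libraries, a difference of 0.75 ± 0.37. The groups did not overlap for Fastk, of whose exons 26.1% are shared with other annotated genes. Of the 76 proteins of the mitochondrial ribosome tested, 73 were higher and 26 did not overlap (background 11.9%), with a median of 0.34. Mrpl12, a ribosomal protein that also binds the mitochondrial RNA polymerase, had 18.6, 20.8 and 15.4 FPKM in knockout, against 7.79, 8.44 and 15.2 FPKM in wild-type libraries.

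Every nuclear subunit of the respiratory chain that could be tested had a higher mean in the knockout. This was 78 of 78 genes, 65 of them without overlap against a background of 11.9%, with a median difference of 0.72. None reached an unadjusted p below 0.05 in the limma fit, whose spread includes the isoproterenol libraries. By complex, the counts without overlap were 33 of 36 in complex I, 2 of 4 in complex II, 5 of 9 in complex III, 12 of 14 in complex IV and 13 of 15 in ATP synthase. The medians were 0.73, 0.66, 0.72, 0.77 and 0.70. Ndufa2, an accessory subunit of complex I, had 168, 111 and 115 FPKM in the knockout libraries, against 58.6, 60.8 and 67.5 FPKM in the wild-type libraries, a difference of 1.04 ± 0.51 (limma, unadjusted p = 0.062). The 3 wild-type values lay close together and all were below 111 FPKM. Sdha, the flavoprotein of complex II, had 52.4, 51.5 and 49.7 FPKM in knockout, against 32.9, 35.2 and 49.6 FPKM in wild-type libraries, so PNXM649 nearly reached the knockout values. Uqcrq of complex III had 121, 87.7 and 85.0 FPKM in knockout, against 39.3, 41.5 and 55.5 FPKM in wild-type libraries, a difference of 1.09 ± 0.64.

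Cox6a2, the muscle form of a cytochrome c oxidase subunit, had 599, 356 and 371 FPKM in the knockout libraries, against 142, 200 and 198 FPKM in the wild-type libraries. Its difference of 1.27 ± 0.76 was the largest in complex IV, with an unadjusted limma p of 0.12. Cox8b, another muscle form, differed by 1.13 ± 0.73. Atp5e, the epsilon subunit of ATP synthase, had 121, 79.8 and 78.7 FPKM in knockout, against 41.3, 40.8 and 46.2 FPKM in wild-type libraries, a difference of 1.08 ± 0.55. Atp5g1, which encodes the ring that turns in the membrane, had 41.4, 37.9 and 39.2 FPKM in knockout, against 12.97, 16.2 and 25.6 FPKM in wild-type libraries. The groups did not overlap for either gene. The 14 ventricular cardiomyocyte markers moved in the same direction by a median of 1.02, and their part in the respiratory chain values was not tested. The mean log2(FPKM + 1) level of the respiratory chain genes minus that of the cardiomyocyte markers was -1.83, -1.87 and -2.03 in the knockout libraries, against -1.48, -1.93 and -1.68 in the wild-type libraries. These knockout values lay within or below the wild-type range, and Cox6a2 is a member of both lists. What sets this measure was not tested.

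Mitochondrial and nuclear respiratory genes also did not keep step within the knockout group. The level of the 13 mitochondrial protein genes minus that of the nuclear respiratory chain was 8.47, 9.89 and 9.80 log2 units in the knockout libraries, against 8.91, 8.61 and 8.91 in the wild-type libraries. Knockout PNXM664 and PNXM663 lay above all 3 wild-type libraries, while PNXM658 lay below every wild-type library. PNXM658 was at the same time the knockout library with the highest nuclear respiratory level, 5.95 against 5.70 in PNXM664 and 5.63 in PNXM663.

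Promoter sequence from RefSeq (GRCm38.p6) was available for 64 of the 78 nuclear respiratory genes and 24 of the 30 sarcomere genes described further on. The 250 bases before each start were searched on both strands. The palindromic core site of nuclear respiratory factor 1 (NRF1), whose letters are the capitals in the Atp5k promoter below, was found in 4 of the 64 respiratory promoters (6.25%) and in 0.88% of all 27025 genes with a promoter in the table. TCAAGGTCA, the site of estrogen-related receptors, was found in 1 of the 64 (1.56%) and in 0.42% of all. CATTCC, the site of TEAD factors, stood in 9 of the 24 sarcomere promoters (37.5%), in 10.9% of the respiratory ones and in 14.4% of all. AGATAA, which factors of the GATA family bind, stood in 16.7% of sarcomere promoters, in 9.38% of respiratory ones and in 11.4% of all, and TATAAA in 4.17%, 7.81% and 14.3%. These are letter matches and not binding sites. An example of each group is printed, 5′ to 3′ in coding direction, because the genes of the group stood higher together; capitals mark the NRF1 site in Atp5k (chr5:108434400-108434649, minus strand) and CATTCC in Tnnt2 (chr1:135836084-135836333, plus strand, 1 of the starts that RefSeq lists).
Atp5k: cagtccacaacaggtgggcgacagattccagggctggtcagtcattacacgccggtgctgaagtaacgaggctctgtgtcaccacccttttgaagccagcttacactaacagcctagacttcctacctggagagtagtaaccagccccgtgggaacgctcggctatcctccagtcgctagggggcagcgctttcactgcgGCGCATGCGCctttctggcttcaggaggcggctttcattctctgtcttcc
Tnnt2: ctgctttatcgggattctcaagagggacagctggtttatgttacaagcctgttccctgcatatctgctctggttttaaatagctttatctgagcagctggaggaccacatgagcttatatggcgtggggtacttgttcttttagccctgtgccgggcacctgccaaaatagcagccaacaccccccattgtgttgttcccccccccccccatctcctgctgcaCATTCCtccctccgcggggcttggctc
Atp5k, the e subunit of ATP synthase, had 93.8, 63.5 and 67.2 FPKM in the knockout libraries, against 37.8, 41.9 and 34.3 FPKM in the wild-type libraries.

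The pathways that feed the respiratory chain were higher together as well, though no member was called. All 24 genes of the tricarboxylic acid cycle and pyruvate entry had higher means, 17 without overlap (background 11.9%), with a median of 0.58. Dlat, the acetyltransferase of the pyruvate dehydrogenase complex, had 13.7, 13.5 and 14.3 FPKM in the knockout libraries, against 6.94, 8.44 and 11.5 FPKM in the wild-type libraries, a difference of 0.60 ± 0.32. Cs, citrate synthase, differed by 0.50 ± 0.37 and its lowest knockout value of 64.0 FPKM was just above 63.2 FPKM in wild-type PNXM649. Of 29 genes of fatty acid uptake and beta-oxidation, 28 were higher, 23 of them without overlap (background 11.9%), with a median of 0.61. Cd36, the fatty acid transporter of the cell surface, had 195, 146 and 188 FPKM in knockout, against 121, 144 and 103 FPKM in wild-type libraries (limma, unadjusted p = 0.065). Slc27a1, another fatty acid transporter, differed by 0.61 ± 0.33 without overlap. Acadm, the medium-chain acyl-CoA dehydrogenase, had 40.4, 41.4 and 38.6 FPKM in knockout, against 19.4, 23.9 and 30.5 FPKM in wild-type libraries. Cpt1b, the muscle carnitine transferase, was listed at 0.0547 to 0.143 FPKM in knockout and 0.0262 to 0.143 FPKM in wild-type libraries and was not tested; 81.4% of its exon bases also belong to Gm44502, and the labels do not say how shared reads were counted.

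Ketone and branched-chain amino acid oxidation had 20 of 21 genes higher, 8 without overlap (background 11.9%), and a median of 0.26. In glycolysis, lactate and glycogen metabolism 22 of 29 were higher, 9 without overlap (background 11.9%), with a median of 0.25. That median was 0.41 without PNXM649. Pgam2, muscle phosphoglycerate mutase, had 158, 127 and 113 FPKM in the knockout libraries, against 39.7, 55.5 and 78.7 FPKM in the wild-type libraries, a difference of 1.22 ± 0.55 (limma, unadjusted p = 0.045). Eno3, muscle enolase, had 147, 126 and 143 FPKM in knockout, against 46.5, 66.5 and 85.6 FPKM in wild-type libraries. Slc2a4, the insulin-responsive glucose transporter, had 21.2, 18.1 and 17.7 FPKM in knockout, against 8.79, 9.46 and 8.68 FPKM in wild-type libraries. Ldhb, the heart form of lactate dehydrogenase, had 135, 140 and 126 FPKM in knockout, against 79.9, 63.7 and 104 FPKM in wild-type libraries, without overlap. Ldha, lactate dehydrogenase A, overlapped at 63.8, 55.8 and 42.4 FPKM in knockout, against 45.9, 34.5 and 57.5 FPKM in wild-type libraries.

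The kinases and phosphatases that set the activity of pyruvate dehydrogenase had 4 of 7 genes higher, none without overlap. Their median of 0.0042 had no stable sign, from -0.15 without PNXM661 to 0.06 without PNXM657. Pdk4, the kinase induced by fasting and fatty acids, had 14.6, 23.1 and 10.6 FPKM in the knockout libraries, against 16.0, 18.7 and 10.1 FPKM in the wild-type libraries. Among 25 regulators of oxidative genes, 17 were higher and 8 did not overlap (background 11.9%), with a median of 0.12, or 0.26 without PNXM649. Perm1, a muscle regulator downstream of PGC-1, had 15.6, 13.6 and 12.2 FPKM in knockout, against 5.56, 7.78 and 11.6 FPKM in wild-type libraries. Ppargc1a, which encodes PGC-1 alpha, differed by 0.33 ± 0.23, Esrra, the estrogen-related receptor alpha, by 0.53 ± 0.43, and Ppara, the fatty acid receptor, by 0.12 ± 0.21. Of these 4 regulators Ppara overlapped and the other 3 did not. Ncor1, a corepressor, had the lowest difference of the list at -0.38 ± 0.22, which was -0.15 without wild-type PNXM657.

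**Figure D3:**
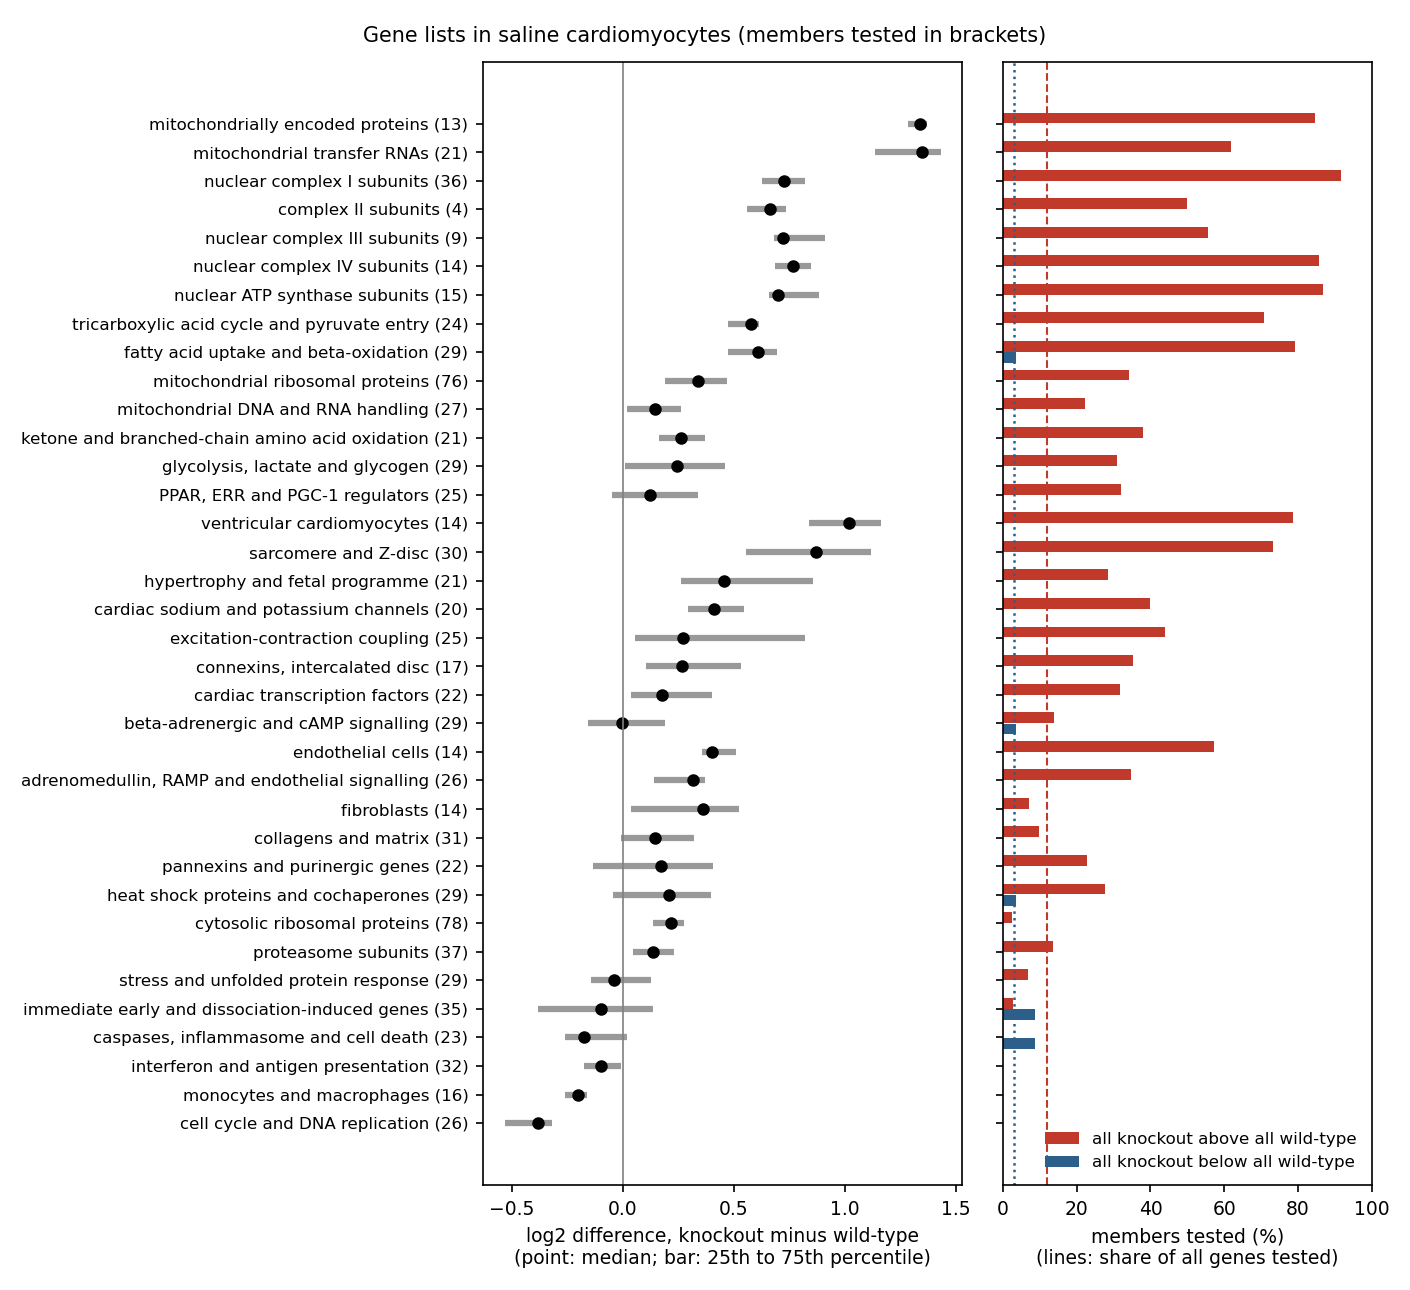
For each gene list, the median log2 difference with its 25th to 75th percentile (left) and the percent of tested members whose knockout libraries all lie above or all below the wild-type libraries (right); dashed and dotted lines give the same shares over all genes, 11.9% and 2.89%. Mitochondrial, respiratory and contractile lists lie farthest to the right, and of the lists drawn the cell cycle list lies farthest to the left.

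Contractile genes were higher in the knockout across the list. All 30 sarcomere and Z-disc genes had higher means, 22 without overlap against 11.9% of all genes, and 8 reached an unadjusted p below 0.05 against 2.67%; the median was 0.87. Without wild-type PNXM657, the library with the lowest sarcomere level, the median was 0.57. Tcap, telethonin of the Z-disc, had 429, 514 and 628 FPKM in the knockout libraries, against 133, 143 and 305 FPKM in the wild-type libraries. The difference of 1.52 ± 0.47 (limma, unadjusted p = 0.0067) was the largest of the list. Synpo2l, a Z-disc actin-binding protein, had 7.85, 8.89 and 6.86 FPKM in knockout, against 2.83, 3.72 and 4.57 FPKM in wild-type libraries, a difference of 0.92 ± 0.32. Tnnt2, cardiac troponin T, had 151, 150 and 224 FPKM in knockout, against 56.4, 90.6 and 84.1 FPKM in wild-type libraries, a difference of 1.18 ± 0.44. Neither gene overlapped between genotypes.

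Myh6, the fast myosin heavy chain of adult mouse heart and the namesake of the driver, had 420, 345 and 653 FPKM in the knockout libraries, against 158, 342 and 274 FPKM in the wild-type libraries. The difference was 0.89 ± 0.48 (limma, unadjusted p = 0.084), and wild-type PNXM661 came close to the lowest knockout library. Mybpc3, cardiac myosin-binding protein C, differed by 1.14 ± 0.48 and Myl2, the ventricular regulatory light chain, by 1.35 ± 0.57. Ttn, titin, overlapped at 2.23, 1.18 and 1.95 FPKM in knockout, against 0.947, 1.84 and 0.624 FPKM in wild-type libraries. The 14 ventricular cardiomyocyte markers, some of which are also in the sarcomere list, summed to 5786 to 6775 FPKM in knockout, against 2139 to 3881 FPKM in wild-type libraries. All 14 were higher in the knockout and 11 did not overlap (background 11.9%). A larger share of cardiomyocytes in the knockout libraries and more of these transcripts per cell cannot be told apart.

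Genes of excitation-contraction coupling were mixed. Of 25 tested, 20 were higher and 11 did not overlap (background 11.9%), with a median of 0.27, or 0.16 without PNXM657. Trdn, triadin of the calcium release complex, had 12.1, 11.3 and 13.3 FPKM in knockout, against 4.83, 5.86 and 7.48 FPKM in wild-type libraries, a difference of 0.92 ± 0.32 without overlap. Pln, phospholamban, had 364, 386 and 338 FPKM in knockout, against 146, 170 and 261 FPKM in wild-type libraries; 64.7% of its exon bases are shared with other annotated genes, chiefly Gm47644. Atp2a2, the calcium pump that phospholamban restrains, overlapped at 182, 118 and 120 FPKM in knockout, against 70.8, 124 and 112 FPKM in wild-type libraries. Ryr2, the calcium release channel, differed by 0.19 ± 0.48 and Cacna1c, the L-type calcium channel, by 0.27 ± 0.27.

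Sodium and potassium channels were higher in 19 of 20 genes tested, 8 without overlap (background 11.9%), with a median of 0.41. A further 8 channels were too low to test. Kcnk3, a background potassium channel, had 20.9, 14.5 and 17.9 FPKM in the knockout libraries, against 6.996, 9.0 and 8.43 FPKM in the wild-type libraries, a difference of 1.03 ± 0.51. Kcnj11, the pore of the ATP-sensitive potassium channel, had 8.07, 9.83 and 7.80 FPKM in knockout, against 3.22, 5.18 and 7.34 FPKM in wild-type libraries. Neither gene overlapped, and neither had an unadjusted p below 0.05. Kcnd2, a transient outward channel, was the exception in direction at -0.16 ± 0.25.

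Junction genes were higher in 16 of 17 tested, 6 without overlap (background 11.9%), with a median of 0.27, or 0.17 without PNXM657. Gja1, connexin 43 of the intercalated disc, had 49.9, 43.2 and 34.5 FPKM in the knockout libraries, against 27.4, 30.2 and 17.6 FPKM in the wild-type libraries, a difference of 0.76 ± 0.29 (limma, unadjusted p = 0.021). Gja4, connexin 37 of arterial endothelium, had 5.22, 7.499 and 5.09 FPKM in knockout, against 2.57, 2.58 and 4.04 FPKM in wild-type libraries, a difference of 0.77 ± 0.24. Pkp2, a desmosomal plakophilin, differed by 0.67 ± 0.33 without overlap. Tjp1, the zonula occludens scaffold, overlapped with a difference of 0.07 ± 0.30.

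Genes used to grade hypertrophy were higher in 19 of 21 tested. An unadjusted p below 0.05 was reached by 5 (background 2.67%), and 6 did not overlap (background 11.9%). The median of 0.46 was 0.22 without wild-type PNXM657. Acta1, skeletal alpha-actin of the fetal program, had 40.6, 61.4 and 79.2 FPKM in the knockout libraries, against 12.7, 30.9 and 14.7 FPKM in the wild-type libraries, a difference of 1.64 ± 0.59. Myh7, the slow fetal myosin, had 7.88, 6.07 and 13.5 FPKM in knockout, against 2.82, 5.54 and 2.17 FPKM in wild-type libraries, a difference of 1.18 ± 0.37 (limma, unadjusted p = 0.0066). Neither overlapped. Ctgf, a matrix growth factor, had 11.2, 20.95 and 16.8 FPKM in knockout, against 7.23, 12.6 and 4.69 FPKM in wild-type libraries, a difference of 0.97 ± 0.29 with overlap; 23.2% of its exon bases are shared with Gm15270. The natriuretic peptides did not separate. Nppb had 62.6, 32.9 and 20.95 FPKM in knockout, against 16.2, 31.0 and 13.7 FPKM in wild-type libraries. Nppa had 15.6, 32.9 and 25.7 FPKM in knockout, against 4.0, 19.5 and 55.7 FPKM in wild-type libraries, and 61.5% of its exon bases are shared with an antisense gene. Its difference of 0.46 was -0.46 without PNXM657 and 1.29 without PNXM649.

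Of 22 cardiac transcription factors, 17 were higher and 7 did not overlap (background 11.9%), with a median of 0.18, or 0.33 without PNXM649. Hand2, a ventricular factor, had 5.88, 8.46 and 7.75 FPKM in the knockout libraries, against 1.91, 4.61 and 3.50 FPKM in the wild-type libraries, a difference of 0.99 ± 0.40 (limma, unadjusted p = 0.028). Gata4 differed by 0.41 ± 0.28 without overlap, whereas Nkx2-5, at 0.79 ± 0.55, and Mef2c, at 0.03 ± 0.18, overlapped. Signalling from the beta-adrenergic receptor, the target of isoproterenol, had 14 of 29 genes higher and a median of -0.0047, or 0.11 without PNXM664. Its receptor Adrb1 nevertheless separated the genotypes, at 2.5, 2.81 and 2.83 FPKM in knockout, against 1.42, 1.66 and 1.56 FPKM in wild-type libraries, with a difference of 0.55 ± 0.22 (limma, unadjusted p = 0.024). Arrb2, an arrestin that silences activated receptors, had 5.24, 6.71 and 6.23 FPKM in knockout, against 7.22, 7.31 and 10.8 FPKM in wild-type libraries, and the groups did not overlap.

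In the purinergic system that pannexin 1 feeds, 13 of 22 genes tested were higher, 5 without overlap (background 11.9%). The median was 0.17, or 0.09 without PNXM664, and 13 more genes were too low to test. P2ry2, the receptor for ATP and UTP, had 4.83, 5.23 and 6.203 FPKM in the knockout libraries, against 2.16, 3.22 and 4.18 FPKM in the wild-type libraries. Its difference of 0.64 ± 0.21 (limma, unadjusted p = 0.0087, adjusted p = 0.895) had the smallest p of this group. P2ry6, a receptor for UDP, had 4.14, 7.14 and 5.38 FPKM in knockout, against 3.20, 4.33 and 4.94 FPKM in wild-type libraries, with overlap. Alpl, the phosphatase that can end the path to adenosine, differed by 0.42 ± 0.22 without overlap. Entpd1, the ectonucleotidase CD39, differed by 0.09 ± 0.24. Nt5e, the adenosine-forming CD73, had 0.591, 0.658 and 0.906 FPKM in knockout, against 0.598, 0.909 and 1.49 FPKM in wild-type libraries, and was too low to test.

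Caspases, inflammasome and cell death genes had 17 of 23 lower means, 2 without overlap against a background of 2.89%, with a median of -0.17. That median was -0.05 without PNXM658. Aim2, a DNA-sensing inflammasome receptor, had 0.593, 1.21 and 1.15 FPKM in knockout, against 1.55, 1.65 and 1.35 FPKM in wild-type libraries, and Nlrp3 was too low to test. Bnip3, a mitochondrial cell death and mitophagy receptor, differed by 0.50 ± 0.35.

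Endothelial transcripts were higher in the knockout, although the driver targets cardiomyocytes. All 14 endothelial markers had higher means, 8 without overlap (background 11.9%) and 4 with an unadjusted p below 0.05 (background 2.67%). The median of the 14 was 0.40. Their summed level was 519 to 570 FPKM in the knockout libraries, against 339 to 458 FPKM in the wild-type libraries. Vwf, von Willebrand factor, had 6.08, 14.5 and 9.91 FPKM in knockout, against 5.52, 4.97 and 3.63 FPKM in wild-type libraries, a difference of 0.91 ± 0.29 (limma, unadjusted p = 0.0073). Eng, the co-receptor endoglin, had 71.0, 91.1 and 84.3 FPKM in knockout, against 40.2, 58.5 and 49.6 FPKM in wild-type libraries, a difference of 0.73 ± 0.25. Both separated the genotypes, and so did Ly6c1 (0.73 ± 0.25) and Emcn, endomucin (0.53 ± 0.21). Pecam1 also did, at 34.0, 34.5 and 32.9 FPKM in knockout, against 26.4, 28.3 and 21.8 FPKM in wild-type libraries, whereas Cdh5, the junctional cadherin, overlapped.

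Adrenomedullin is a peptide that dilates vessels and seals their endothelium. Of 26 genes of its receptors, RAMP proteins and endothelial signalling, 23 were higher. Of these 5 reached an unadjusted p below 0.05 (background 2.67%) and 9 did not overlap (background 11.9%), and the median was 0.32. Ramp2, which turns the receptor Calcrl into an adrenomedullin receptor, had 13.7, 18.97 and 15.1 FPKM in the knockout libraries, against 7.33, 9.12 and 9.67 FPKM in the wild-type libraries. Its difference was 0.80 ± 0.21, with the smallest p of any protein-coding gene outside the mitochondrial chromosome (limma, unadjusted p = 0.0018); 33.4% of the exon bases of Ramp2 are shared with Vps25 on the same strand. Adm, the peptide precursor, had 5.73, 8.15 and 8.22 FPKM in knockout, against 3.19, 5.40 and 3.76 FPKM in wild-type libraries, a difference of 0.72 ± 0.21. Ackr3, a decoy receptor for adrenomedullin and a chemokine, differed by 0.63 ± 0.22, and Heyl, a Notch target of vessel walls, by 0.44 ± 0.13. Neither overlapped. Calcrl itself did, at 7.48, 6.499 and 6.82 FPKM in knockout, against 6.07, 6.82 and 5.50 FPKM in wild-type libraries.

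Stromal lists gave less separation. Of 14 fibroblast markers 11 were higher and 1 did not overlap, with a median of 0.36, or 0.16 without PNXM657, and a summed level of 1206 to 2130 FPKM in the knockout libraries, against 849 to 1525 FPKM in the wild-type libraries. Gsn, gelsolin, had 598, 1054 and 1095 FPKM in knockout, against 389, 518 and 645 FPKM in wild-type libraries, a difference of 0.80 ± 0.30. Of 31 matrix genes 23 were higher, 3 without overlap, a share below the background of 11.9%. Their median of 0.14 was 0.02 without PNXM657. Timp4, the cardiac metalloproteinase inhibitor, had 18.0, 12.8 and 30.6 FPKM in knockout, against 8.44, 8.37 and 7.05 FPKM in wild-type libraries, a difference of 1.18 ± 0.40 (limma, unadjusted p = 0.011). Col1a1, the main fibrillar collagen, differed by -0.07 ± 0.34. Fn1, fibronectin, had 12, 34.4 and 29.7 FPKM in knockout, against 12.2, 46.8 and 169 FPKM in wild-type libraries, and its difference of -0.98 was -0.06 without PNXM649. Of 11 smooth muscle and pericyte markers, 9 were higher and 2 did not overlap, with a median of 0.23, or 0.38 without PNXM664.

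Immediate early genes, which respond within minutes to stimuli and to tissue dissociation, had lower means in most members. Of 35 tested 23 were lower, 4 with an unadjusted p below 0.05 (background 0.864%) and 3 without overlap (background 2.89%). The median was -0.10. That median was 0.16 without PNXM661 and PNXM649, the libraries rich in airway transcripts, an omission chosen after values were seen. Socs3, an inhibitor of cytokine signalling, had 3.41, 4.24 and 4.52 FPKM in the knockout libraries, against 5.44, 7.42 and 11.0 FPKM in the wild-type libraries, a difference of -0.78 ± 0.24 (limma, unadjusted p = 0.0053). Egr1 had 5.41, 6.13 and 4.62 FPKM in knockout, against 7.98, 15.3 and 6.60 FPKM in wild-type libraries, a difference of -0.70 ± 0.24. Fos differed by -1.24 ± 0.51, at 2.20, 7.37 and 4.57 FPKM in knockout, against 4.25, 18.96 and 17.8 FPKM in wild-type libraries. Fos was highest in the same 2 libraries, and the part of the airway transcripts in these values was not tested. Gadd45g, a growth arrest gene, went the other way at 5.35, 4.95 and 8.75 FPKM in knockout, against 2.38, 3.35 and 3.801 FPKM in wild-type libraries, a difference of 0.79 ± 0.22.

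Chaperones and stress signalling genes were mixed. Hspa1b, an inducible heat shock protein, had 1.03, 1.15 and 1.43 FPKM in the knockout libraries, against 5.35, 1.80 and 1.94 FPKM in the wild-type libraries. Its difference of -0.76 was -0.38 without PNXM657, and it shares near-identical sequence with Hspa1a. The small heat shock proteins of muscle were higher: Hspb7 differed by 1.10 ± 0.51 and Hspb6 by 1.01 ± 0.47, both without overlap. The whole heat shock list had 19 of 29 higher and a median of 0.21, or 0.10 without PNXM658. In the integrated stress and unfolded protein response 12 of 29 were higher, with a median of -0.04, or 0.04 without PNXM663. Its smallest p belonged to Trib3, a pseudokinase induced by Atf4, at 2.09, 2.39 and 2.11 FPKM in knockout, against 1.46, 1.28 and 1.43 FPKM in wild-type libraries, a difference of 0.42 ± 0.15. Ddit3, which encodes CHOP, had 4.62, 4.52 and 4.26 FPKM in knockout, against 4.01, 3.06 and 3.14 FPKM in wild-type libraries. Atf4 overlapped, and so did Hspa5, the main chaperone of the endoplasmic reticulum.

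Ccng1, a p53 target, had 47.6, 61.0 and 52.3 FPKM in the knockout libraries, against 25.7, 30.4 and 40.01 FPKM in the wild-type libraries, whereas Cdkn1a, the best known such target, overlapped; 10 of 16 genes of that list were higher. Antioxidant genes were higher in 23 of 32, with a median of 0.17, or 0.07 without PNXM657; Sod2, the mitochondrial superoxide dismutase, had 20.5, 24.7 and 20.7 FPKM in knockout, against 10.4, 13.2 and 19.9 FPKM in wild-type libraries. Clock genes had 12 of 17 higher means, none without overlap, and a median of 0.34, which was 0.03 without PNXM663. Dbp, an output gene of the clock, had 6.53, 21.4 and 28.3 FPKM in knockout, against 3.82, 5.998 and 23.3 FPKM in wild-type libraries. Arntl, which is expressed in the opposite phase, had 5.09, 2.03 and 1.16 FPKM in knockout, against 8.26, 5.08 and 2.49 FPKM in wild-type libraries. In both genotypes the library with the most Dbp had the least Arntl. The labels give no collection times.

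Housekeeping complexes moved little. Of 78 cytosolic ribosomal proteins 68 were higher but only 2 did not overlap (background 11.9%). Their median of 0.21 was 0.02 without PNXM661. Rpl3l, the form made in striated muscle, was the exception at 41.5, 30.6 and 43.1 FPKM in the knockout libraries, against 12.48, 18.5 and 18.4 FPKM in the wild-type libraries, a difference of 1.18 ± 0.50. Of 37 proteasome subunits 30 were higher, with a median of 0.14 that was 0.02 without PNXM661. Autophagy and mitochondrial dynamics had 21 of 29 higher and a median of 0.17, which was 0.09 without PNXM657. Mfn2, the outer membrane fusion protein, had 27.6, 31.5 and 27.3 FPKM in knockout, against 13.2, 18.3 and 27.1 FPKM in wild-type libraries, while Opa1, which fuses the inner membrane, differed by 0.05 ± 0.25.

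Immune, blood and proliferation lists varied with the libraries included. All 26 cell cycle genes had lower means in the knockout, none without overlap, with a median of -0.38 that was 0.05 without PNXM657 and -0.87 without PNXM658. Top2a, the topoisomerase of dividing cells, had 10.9, 1.05 and 0.454 FPKM in the knockout libraries, against 16.7, 1.73 and 2.25 FPKM in the wild-type libraries; PNXM658 and PNXM657 are the libraries with thymocyte transcripts. Lymphocyte markers had 12 of 13 lower means and a median of -0.34, which was 0.45 without PNXM657. Neutrophil markers had 14 of 15 lower and a median of -0.58, or -0.08 without PNXM649. They summed to 70.0 to 107 FPKM in knockout, against 81.0 to 470 FPKM in wild-type libraries. The 1 higher member, G0s2, did not overlap, at 15.1, 13.6 and 13.6 FPKM in knockout, against 6.66, 7.06 and 10.6 FPKM in wild-type libraries. S100a8, a neutrophil calcium-binding protein, had 12.6, 18.2 and 23 FPKM in knockout, against 24.8, 13.8 and 98.2 FPKM in wild-type libraries, and its difference of -0.87 was -0.08 without PNXM649. The median of 16 macrophage markers, -0.20 with 14 lower, was 0.19 without the same library.

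Chemokines and adhesion molecules that recruit leukocytes were balanced, with 9 of 17 higher and a median of 0.06, or -0.12 without PNXM664. Vcam1, the adhesion molecule of activated endothelium, had 3.03, 5.61 and 3.55 FPKM in the knockout libraries, against 2.12, 2.82 and 2.31 FPKM in the wild-type libraries, a difference of 0.54 ± 0.24. Cxcl1, a neutrophil attractant, was too low to test. Interferon and antigen presentation genes had 24 of 32 lower, none without overlap, and a median of -0.10 that was 0.02 without PNXM658. Hemoglobin transcripts varied by library. Hbb-bs had 2708, 25813 and 10741 FPKM in knockout, against 5047, 3313 and 13056 FPKM in wild-type libraries. Atrial transcripts were highest in wild-type PNXM649, where Myl7, the atrial light chain, had 331 FPKM, and lowest in wild-type PNXM657 at 18.0 FPKM; the 3 knockout libraries had 53.4, 137 and 77.0 FPKM. Mesothelial Upk3b, at 15.0, 49.9 and 88.1 FPKM in knockout, against 42.3, 102 and 105 FPKM in wild-type libraries, followed its own order. Of the 12 Schwann, neuronal and mesothelial markers 5 were high enough to test, and Th was listed at 0. All 5 had lower knockout means without separation, with a median of -0.85 that was -0.25 without PNXM658 and -0.05 without PNXM661 and PNXM649. Adipocyte Adipoq and Plin1 stayed below the filter.

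**Figure D4:**
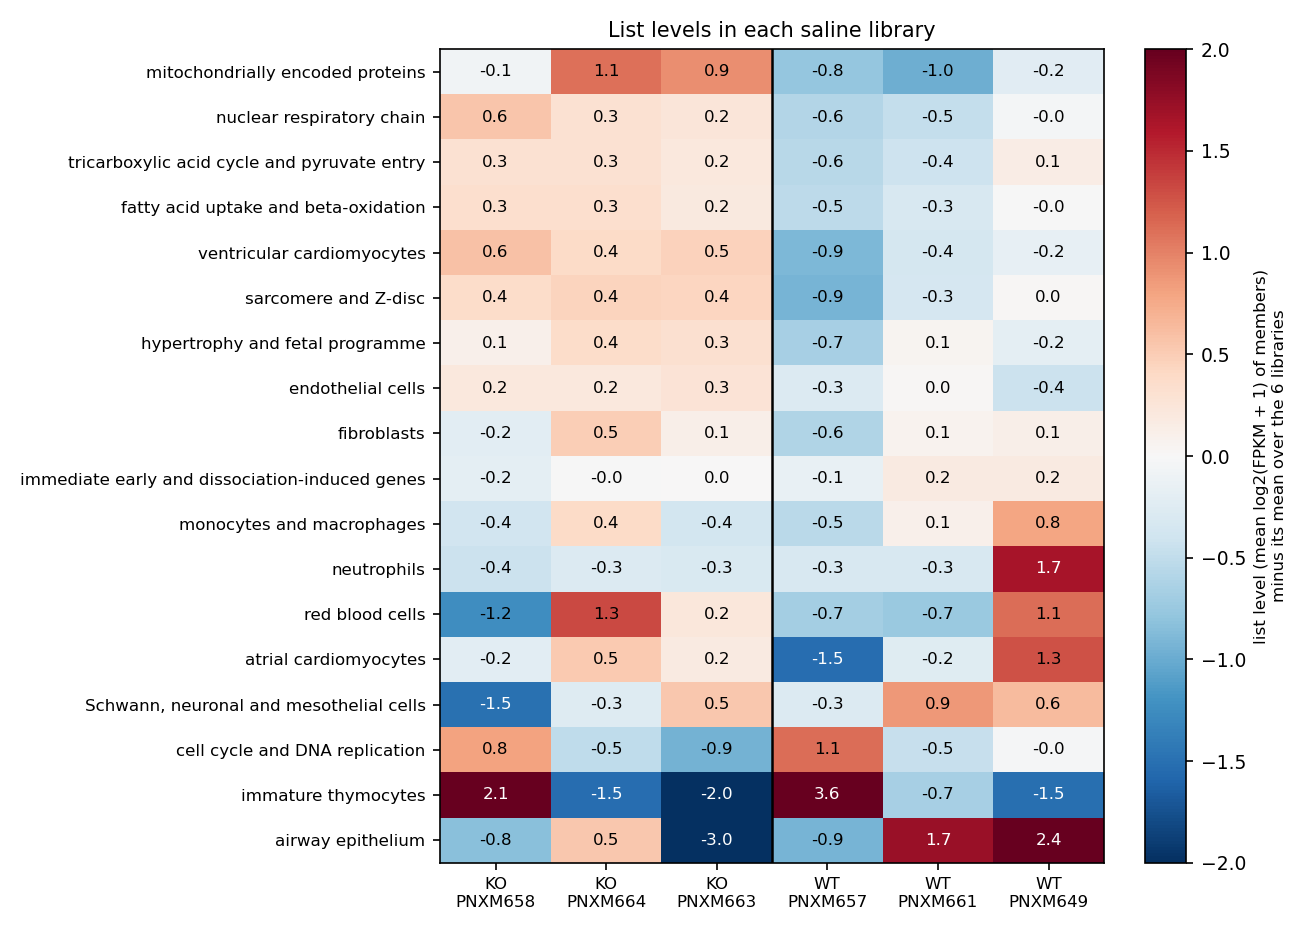
Mean log2(FPKM + 1) level of each list in each saline library, minus the list's mean over the 6 libraries, with knockout (KO) columns left of wild-type (WT) columns. Respiratory and contractile lists are highest in the knockout columns. Thymocyte levels are highest in PNXM657 and PNXM658, airway levels in PNXM661 and PNXM649, and neutrophil and atrial levels in PNXM649. Red blood cell levels are highest in PNXM664 and PNXM649.

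Of the higher genes outside the lists, those with the smallest p included secreted and surface proteins. Scarf1, a scavenger receptor of endothelial cells, had 7.01, 6.87 and 6.78 FPKM in the knockout libraries, against 4.04, 5.05 and 3.93 FPKM in the wild-type libraries, a difference of 0.57 ± 0.16 (limma, unadjusted p = 0.0030). Colec11, a collectin of the complement system, had 10.47, 11.1 and 8.41 FPKM in knockout, against 6.31, 5.71 and 6.35 FPKM in wild-type libraries, a difference of 0.62 ± 0.18. Olfml3, a secreted olfactomedin-like protein, differed by 0.70 ± 0.20. These 3 genes did not overlap. Pgf, placental growth factor, had 3.91, 6.24 and 9.84 FPKM in knockout, against 2.08, 2.15 and 3.99 FPKM in wild-type libraries, a difference of 1.00 ± 0.29 with slight overlap.

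Of the lower genes, Celsr1, a cadherin of planar cell polarity, had 0.730, 0.317 and 0.573 FPKM in the knockout libraries, against 1.37, 1.36 and 1.01 FPKM in the wild-type libraries, a difference of -0.55 ± 0.15 (limma, unadjusted p = 0.0026). Sesn3, a sestrin that restrains mTORC1, had 2.43, 2.52 and 2.52 FPKM in knockout, against 4.51, 3.76 and 3.39 FPKM in wild-type libraries, a difference of -0.48 ± 0.17. Zc3h12a, the RNase regnase-1 that degrades cytokine messages, had 1.69, 2.14 and 1.67 FPKM in knockout, against 2.83, 3.02 and 2.497 FPKM in wild-type libraries, a difference of -0.42 ± 0.15. Fam102a had 4.22, 3.38 and 3.33 FPKM in knockout, against 5.25, 5.31 and 5.17 FPKM in wild-type libraries. Gramd1b, which moves cholesterol between membranes, differed by -0.43 ± 0.14, and Plagl2, Sec11c, Arel1 and Hist1h4k by -0.46, -0.49, -0.36 and -0.74. All these genes lay below wild-type in every knockout library.

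The saline effect was set against the effect of the same knockout after isoproterenol, whose group means come from other libraries. Limma called 0 of 11919 genes (0%) for the difference of effects, with 294 (2.47%) at an unadjusted p below 0.05 and a smallest adjusted p of 0.190; voom also called 0, with 293. Among protein-coding genes, those with the smallest p were all mitochondrially encoded, ahead of Trib3. mt-Atp6 was higher by 1.70 in saline and lower by 0.97 after isoproterenol in knockout than in wild-type libraries, a difference of effects of 2.67 (limma, unadjusted p = 0.0001). For the 13 mitochondrial protein genes the median effect was 1.34 in saline and -1.23 after isoproterenol. Mitochondrial reads after isoproterenol were 61.1 ± 10.6% in knockout and 77.2 ± 1.82% in wild-type libraries (SD, n = 4 each), opposite in direction to saline. The difference of effects on this share was 33.1 percentage points (exact permutation within treatment, two-sided, p = 0.0014, the smallest that 1400 arrangements allow).

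The nuclear respiratory and contractile lists did not turn round in this way. The nuclear respiratory chain had a median effect of 0.72 in saline and 0.44 after isoproterenol, and the sarcomere list had 0.87 and 0.55. Cardiomyocyte markers had 1.02 and 0.52, and hypertrophy genes 0.46 in both. Endothelial markers had 0.40 in saline and 0.02 after isoproterenol, and fibroblast markers 0.36 and -0.36. Among single genes, Ramp2 differed by 0.80 in saline and -0.15 after isoproterenol. Trib3 differed by 0.42 and -0.49, a difference of effects of 0.91 ± 0.20 (limma, unadjusted p = 0.00049, adjusted p = 0.255). Pdk4 differed by 0.08 and 1.07.

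**Figure D5:**
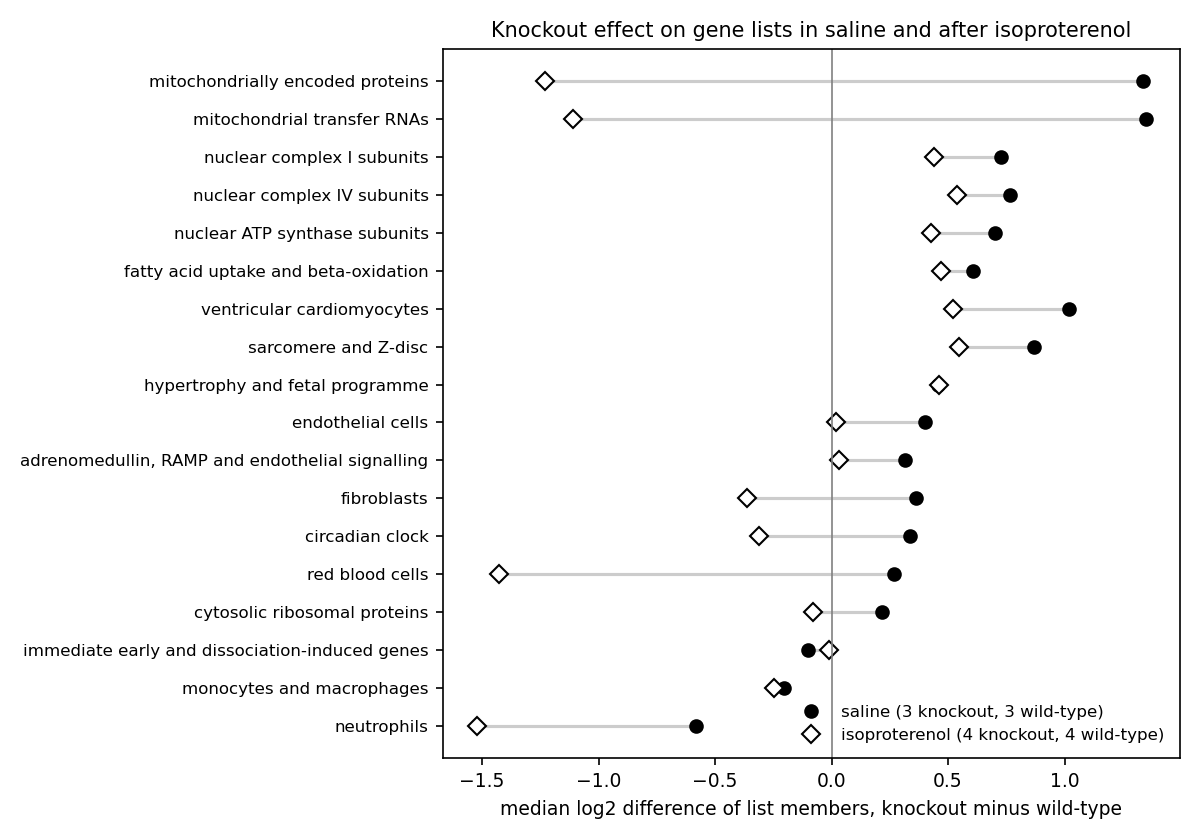
Median log2 difference of each list's tested members, knockout minus wild-type, in saline (filled circles, 3 against 3 libraries) and after isoproterenol (open diamonds, 4 against 4). The mitochondrially encoded lists lie at 1.34 and 1.35 in saline and at -1.23 and -1.11 after isoproterenol, while respiratory, fatty acid and contractile lists are above 0 in both.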

How the data were processed

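The authors deposited FPKM per gene for 23 libraries, made from total RNA (TRIzol and RNeasy extraction, per the labels' protocols). The submitters' processing notes name HISAT2 2.0.5 and featureCounts, with no version for the latter; the genome build, annotation and strand setting are not given in the sources used here. Of 45142 gene IDs shared with GENCODE M21 (GRCm38), 45116 overlapped at the same place. FPKM steps gave whole reads for all 392415 values checked, within 2.15e-06 of a whole number, and showed that the size behind the FPKM was 0.43 to 1.88 times the assigned reads. In saline this factor was 0.86, 0.45 and 0.52 in the knockout libraries, against 1.29, 1.39 and 0.88 in the wild-type libraries. The deposited scaling thus raised knockout FPKM relative to wild-type FPKM, compared with assigned reads as library size.

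In all, 46077 genes were used; 1 misaligned line was left out, and 27 symbols stored as dates were recovered by ID. Limma 3.58.1 (R 4.3.3) with a mean-variance trend was run on log2(FPKM + 1) for 11919 genes of at least 1 FPKM in at least 3 of the 14 cardiomyocyte libraries. The 4 cardiomyocyte groups were fitted together, with Benjamini-Hochberg adjustment. The library measures and figures used Python 3.11.15, scipy 1.17.1 and matplotlib 3.10.9.

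Members and gene lists were chosen with earlier results of these data known; the thymocyte and airway markers were added after values were seen. Named genes are the anchors of each list, up to 4 members per list with the smallest p, the 12 higher and 12 lower protein-coding genes with the smallest p, and the 8 with the smallest p for the difference between treatments. Lists are described by counts and medians and were not tested; some members are not reported here. Alternatives covered the pseudocount (0.1, 0.5), the filter, scaling, voom, weights, the libraries fitted and each library left out.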

Additional observations from a re-analysis of the deposited data

Results flagged for a closer look

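The knockout effect on the share of mitochondrial reads differed between treatments. It was an increase of 17 percentage points in saline and a decrease, -16.1 percentage points, after isoproterenol, so the effects differed by 33.0661 percentage points. The difference itself was tested by exact permutation within treatment (two-sided, p = 0.0014, the smallest that 1400 arrangements allow). In saline the share spanned 69.3 to 80.0% among knockout libraries, against 55.3 to 65.0% among wild-type ones. After isoproterenol it spanned 46.8 to 69.3% among knockout libraries, against 75.6 to 79.3% among wild-type ones. The genotypes did not overlap under either treatment. The treatments use different libraries, and the labels do not state whether they were prepared together.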

How the results depend on the processing

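No paired analysis was possible because the table's columns carry no replicate number. The count of 0 called genes in saline held under the alternatives run except 3. It was 10 without a filter, all lower and weakly expressed, and 6181 with assigned reads as library size, which moved the median of all genes to -0.68. It ranged from 0 to 1 when each library was left out, the 1 being AU040972 without PNXM657. The count for the difference between treatments was 17 with array weights, 31 with all 23 libraries fitted and 10031 with assigned reads as library size, where the median of all genes was -1.25. It ranged from 0 to 1 with each library left out, the 1 being Gm23346 without PNXM645.

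Relative to the median of all genes, assigned reads as library size gave medians of 0.4683 for nuclear complex I, 0.1434 for endothelial markers and 0.7026 for cardiomyocyte markers; the Panx1 difference was then -1.594 FPKM, not set relative to that median. Quantile normalisation gave 0 for the mitochondrially encoded proteins, since it sets the highest values equal in every library, and 0.573 for cardiomyocyte markers. Without PNXM661 and PNXM649 the medians were 0.9581 for complex I, 1.4405 for the sarcomere and 1.5253 for cardiomyocyte markers, and 1639 genes had an unadjusted limma p below 0.05 with 0 called; without PNXM657 and PNXM658, 326 genes did, with 0 called. These 2 omissions were chosen after seeing the data. The mitochondrial difference was 9.1967 percentage points as a share of FPKM. List medians that changed sign in an alternative included cytosolic ribosomal proteins (-0.07 with quantile normalisation) and immediate early genes (0.16 without PNXM661 and PNXM649). The cause of these shifts was not tested, and 4.85 M to 13.4 M reads outside the mitochondrial chromosome limit low genes.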
